A study of Mus musculus with 16 samples.

Results

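The genes described here are the mouse translation initiation and elongation factors, found by symbol in the table of depth-normalized counts. Of its 17159 genes, 63 had symbols starting with Eef or Eif and a digit from 1 to 6. The 8 regulators among them (the eIF2 kinases, the eIF4E-binding proteins and the eEF2 kinase) were set aside by name. Of the 55 left, 54 had a mean of at least 10 depth-normalized reads over the 16 libraries, and the germline cap-binding gene Eif4e1b did not, with a mean of 0.18. The 54 members were therefore 54 of the 12469 genes tested. The symbols Eif2c1 to Eif2c4 are older names of the Argonaute genes Ago1 to Ago4, which act in microRNA silencing. These 4 match by name only. The other 50 were classed by symbol, and not all of them act in initiation or elongation. Eef1e1, Eif4a3 and Eif4enif1, for example, encode proteins with other roles, given below. By symbol, the 50 comprised 6 elongation factor genes, 5 of the eIF1 and eIF1A group, 3 of eIF2, 5 of eIF2B, 2 for eIF2A and eIF2D, 12 of eIF3, 12 of eIF4, 4 of the eIF5 group and Eif6.

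Total RNA was sequenced from CD8+ T cells of C57BL/6 mice that had been stimulated through CD3 and CD28 for 2 days before 36 h in 1 of 4 media. The 4 media, with 4 libraries each, were B16F10 mouse melanoma supernatant with added methionine (supplemented supernatant), the supernatant alone (supernatant), fresh medium lacking methionine (methionine-free medium) and fresh medium containing it (complete medium). All groups shared the prior activation, and the labels name no genetic change. Supplemented supernatant and complete medium are called methionine-supplied below. How much methionine the supernatant held is not given in the labels. The labels do not state whether the 4 libraries of a medium were separate animals or cultures, so p-values measure the spread between libraries, which may be technical.

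Translation initiation begins when eIF2 brings the initiator methionyl-tRNA to the small ribosomal subunit, with eIF1, eIF1A, eIF3 and eIF5 bound. The eIF4 group recruits this complex to the mRNA cap and unwinds the leader, and eIF2B recharges eIF2 with GTP. In elongation, eEF1A delivers aminoacyl-tRNAs, the eEF1B subunits recharge eEF1A, and eEF2 moves the ribosome along by a codon. Many mRNAs of elongation factors and of some initiation subunits start with a C and a run of pyrimidines, the element through which mTORC1 and the binding protein LARP1 are known to control their translation and stability. In T cells, activation is known to raise protein synthesis strongly.

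Because of that element, the bases around the annotated transcription start are shown for the elongation, eIF2 and eIF3 members that hold such a run. Each window has 30 bases, 10 before the start and 20 from it onward, 5′ to 3′ on the strand of the gene, from RefSeq on GRCm38.p6. Capitals mark the longest run of a C followed by at least 4 bases that are each C or T.
Eef1a1 (chr9:78481705-78481734, minus strand): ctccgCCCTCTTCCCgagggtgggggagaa
Eef1e1 (chr13:38659009-38659038, minus strand): gtcctagctgtgcaggccccgCCTCCCTag
Eef2 (chr10:81176621-81176650, plus strand): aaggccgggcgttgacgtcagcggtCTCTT
Eif2s3x (chrX:94212632-94212661, minus strand): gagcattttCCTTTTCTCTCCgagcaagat
Eif3b (chr5:140419295-140419324, plus strand): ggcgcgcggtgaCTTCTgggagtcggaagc
Eif3f (chr7:108934405-108934434, plus strand): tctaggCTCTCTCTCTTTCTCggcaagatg
Eif3k (chr7:28981869-28981898, minus strand): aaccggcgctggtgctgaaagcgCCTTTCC
Eif3l (chr15:79075213-79075242, plus strand): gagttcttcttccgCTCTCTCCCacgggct
Of the 54 members, 43 had a promoter in the RefSeq table, and 17 of the 43 (39.5%) held such a run on the sense strand, which was the only strand searched. Among all 27025 genes of that table, 39.6% held the run in the same window. The run could lie anywhere in the window, so these shares do not count mRNAs that start with it. In Eef1e1, Eef2 and Eif3k, among others, it begins downstream of the annotated start. On methionine removal in fresh medium, 11 of the 17 members with the run and 11 of the 26 without it fell. Of all tested genes, 42.3% fell. The median log2 fold changes of the members were -0.31 with the run and 0.04 without it. Whether the run bears on the change was not tested. Eef1e1, with a run downstream of the start, had a removal log2 fold change of 1.31. Eif2a, with no run in the window, had one of -1.05. The members with no entry in the table were Eef1d, Eef1g, Eif1a, Eif2b3, Eif2c2, Eif3e, Eif3h, Eif3i, Eif4e3, Eif4g2 and Eif6.

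Libraries held 25.8 to 42.3 M recovered reads, and the first principal component of all tested genes held 80.7% of the variance. The CD8 T cell markers summed to between 62312 and 78465 depth-normalized reads per library over the 4 of 5 markers in the table, and none was at 0. Summed B cell markers (5 of 5 in the table) had 363 to 385 reads in supplemented supernatant, 731 to 858 in supernatant, 778 to 966 in methionine-free medium and 503 to 542 in complete medium. Myeloid markers (4 of 5) had 26.4 to 44.2, 88.9 to 96.3, 68.2 to 88.7 and 39.1 to 63.0 reads in supplemented supernatant, supernatant, methionine-free medium and complete medium. CD4 T cell markers (3 of 3) had 3300 to 3587, 4063 to 4555, 3941 to 4090 and 1957 to 2118 reads in the same media, and NK cell markers (3 of 3) had 258 to 302, 79.7 to 104, 33.6 to 53.7 and 105 to 151. Melanoma markers (6 of 6) had 91.0 to 144, 231 to 257, 257 to 282 and 103 to 134 reads, with Mlana at 0 in all libraries of supplemented supernatant, Tyrp1 at 0 in both fresh media and Dct at 0 in complete medium. Several of these sums moved with methionine, but genes within a list differed. In methionine-free against complete medium, Zbtb7b averaged 3672 against 1781 reads, Foxp3 196 against 50.8 and Cd4 163 against 182. In the same order Pmel had 176 and 29.1, Mitf 49.0 and 24.5 and Tyr 37.8 and 62.2. Cd8a had 30626 and 24492, Cd8b1 18811 and 19616, Cd3e 5850 and 10427 and Cd3d 7626 and 12996. Most B cell marker reads were from Cd79b, at 821 and 511. The part of these changes in the results below was not tested.

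When methionine was removed, 5 of 6 elongation genes, 9 of 12 eIF3 genes and 8 of 12 eIF4 genes fell, and the members that rose were spread over most classes. On removal of methionine from fresh medium, 30 of the 54 members (55.6%) fell and 18 (33.3%) rose, by limma's test with Benjamini-Hochberg adjustment across the tested genes and a threshold of 0.05. Among all tested genes, 42.3% fell and 43.3% rose, so the share that fell was above the background and the share that rose was below it. The median log2 fold change of the members was -0.19, against 0.009 for all tested genes. In bulk RNA, fewer cells of a type and less RNA per cell cannot be told apart. On methionine addition to supernatant, 35 members (64.8%) rose and 14 (25.9%) fell, against 41.8% and 41.8% of all tested genes, and the median log2 fold change was 0.29 against -0.004 for all genes. In supernatant against complete medium, 28 members (51.9%) fell and 19 (35.2%) rose, against 42.5% and 43.0% of all tested genes.

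The direction of small changes depends on how libraries are scaled. With libraries scaled to equal totals, the median of all genes moved to 0.168 on removal and -0.135 on addition. Of the members, 25 (46.3%) then fell and 23 (42.6%) rose on removal, against 35.1% and 51.1% of all tested genes. On addition, 30 (55.6%) rose and 19 (35.2%) fell, against 34.9% and 49.4%. Under this scaling too, the members' share was above that of all genes for falls on removal and for rises on addition.

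**Figure D1:**
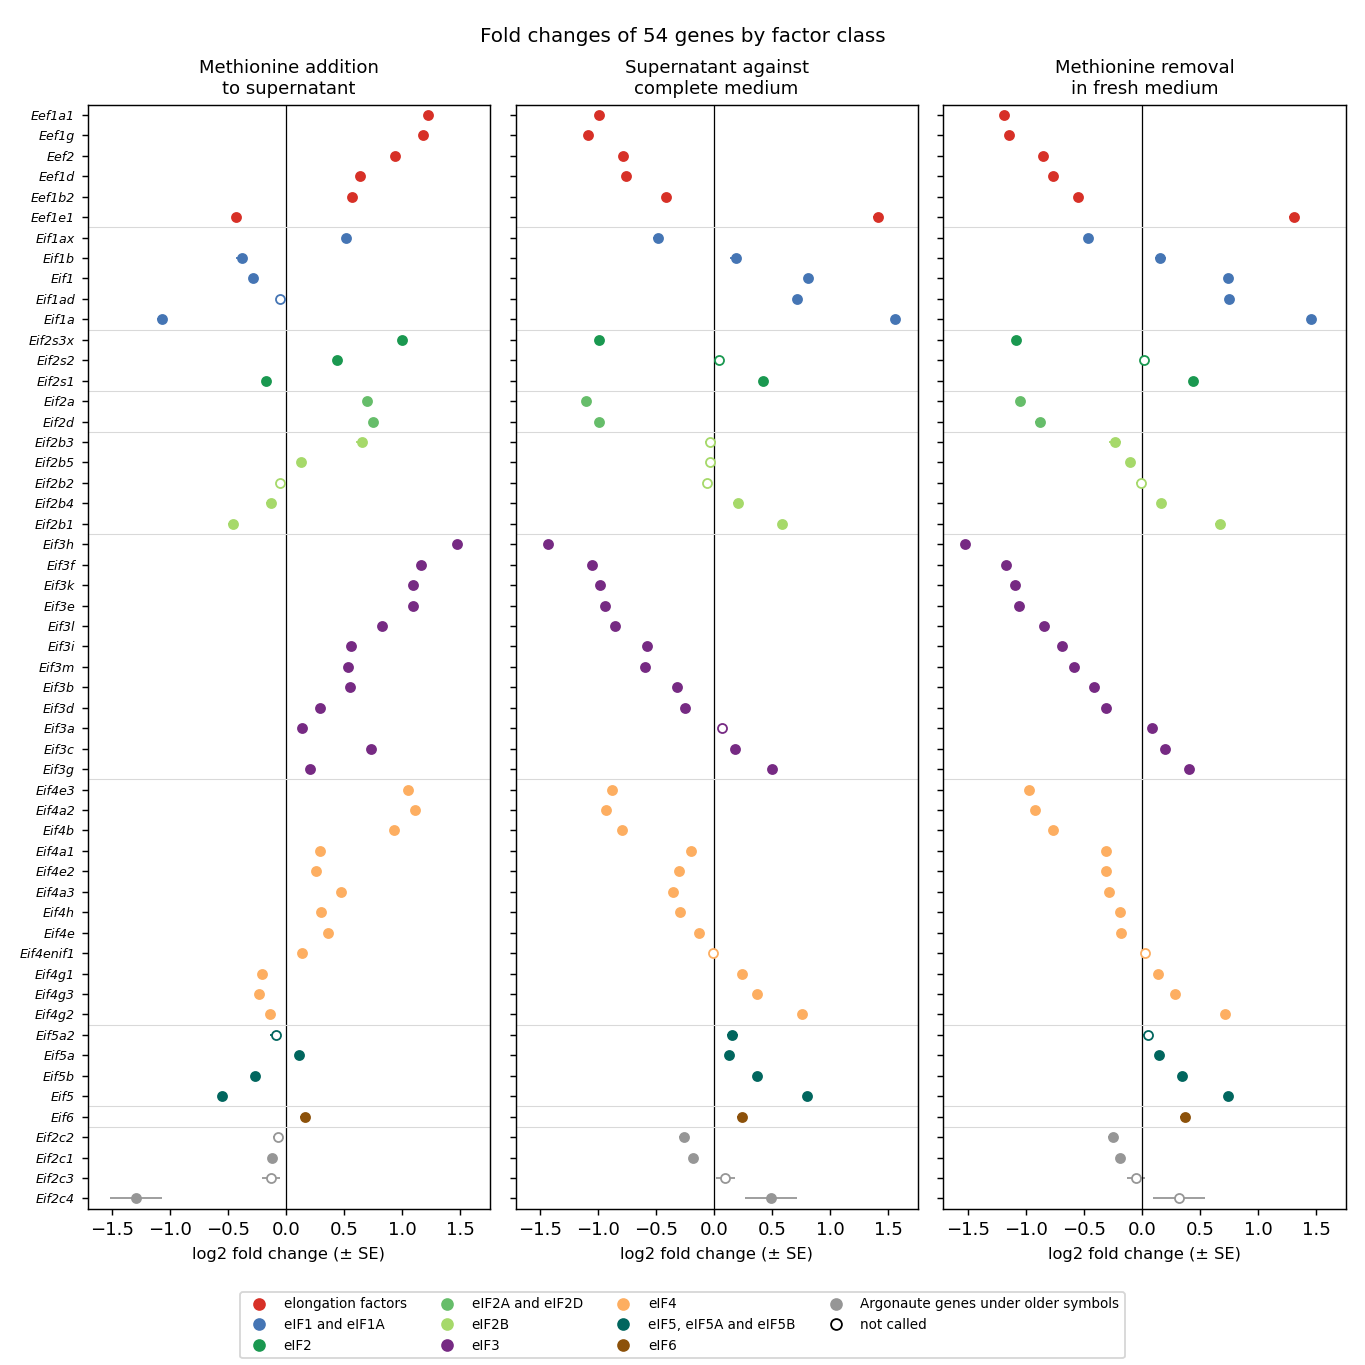
Log2 fold changes with SE of the 54 genes, one row per gene, ordered by factor class, for methionine addition to supernatant (left), supernatant against complete medium (middle) and methionine removal in fresh medium (right). Filled points passed the test and open points did not. Eef1a1, Eef1g, Eef2, Eif2s3x, Eif3h and Eif3f lie right of 0 on addition and left of 0 in the other 2 panels, and Eif1a and Eef1e1 lie on the opposite sides.

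The 2 GTPases of elongation fell on methionine removal and rose on addition. Eef1a1, which encodes the carrier of aminoacyl-tRNA and is annotated at chr9:78478449-78489151, minus strand (GENCODE, GRCm38), had the highest value of all genes in each of the 16 libraries. Eef1a1 had 617070, 613636, 645800 and 615546 depth-normalized reads in supplemented supernatant, against 268148, 265908, 266598 and 267019 in supernatant. Eef1a1 reads numbered 231607, 236509, 234109 and 231155 in methionine-free medium, against 540911, 511849, 545012 and 530473 in complete medium. All libraries of the methionine-supplied media were above all libraries of the other 2 media. Eef1a1 had a log2 fold change of -1.19 ± 0.032 (SE) on removal (adjusted p = 3.11e-26) and of 1.22 ± 0.032 on addition (adjusted p = 2.53e-26). Eef1a1 alone took 1.69 to 1.76% of reads in supplemented supernatant, 0.801 to 0.808% in supernatant, 0.701 to 0.722% in methionine-free medium and 1.41 to 1.49% in complete medium. How reads shared with its processed pseudogenes were counted is not given in the sources used here. Under quantile normalization the Eef1a1 change is 0.00 in every comparison, because that method gives the top-ranked gene of each library the same value.

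Eef2, which encodes the translocase, ranked 2 to 6 among all genes by depth-normalized reads. Eef2 had 258864, 261328, 269338 and 247206 depth-normalized reads in supplemented supernatant, against 133259, 134308, 134461 and 136708 in supernatant. Eef2 reads numbered 127791, 129401, 129527 and 127647 in methionine-free medium, against 230000, 230531, 234098 and 229373 in complete medium. Here too the methionine-supplied libraries were all above the others. Eef2 had a log2 fold change of -0.85 ± 0.030 (SE) on removal (adjusted p = 4.9e-23) and of 0.94 ± 0.030 on addition (adjusted p = 3.81e-24).

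The 3 genes of the exchange complex that recharges eEF1A moved the same way. Eef1g had 54038, 55438, 57738 and 54443 depth-normalized reads in supplemented supernatant, against 24929, 24180, 23961 and 24529 in supernatant. Eef1g reads numbered 22668, 23262, 23582 and 24329 in methionine-free medium, against 52237, 51095, 50843 and 52662 in complete medium. Methionine-supplied libraries were above all others for Eef1g, which encodes the gamma subunit. Eef1g had a log2 fold change of -1.14 ± 0.028 (SE) on removal (adjusted p = 2.09e-27) and of 1.18 ± 0.028 on addition (adjusted p = 1.55e-27). Eef1b2 had 32147, 33563, 34559 and 31540 depth-normalized reads in supplemented supernatant, against 23074, 21273, 21888 and 22607 in supernatant. Eef1b2 reads numbered 19709, 19825, 19741 and 21040 in methionine-free medium, against 30338, 28832, 28577 and 29911 in complete medium. Eef1b2, the gene of a catalytic exchange subunit, showed the same separation. Eef1b2 had a log2 fold change of -0.55 ± 0.032 (SE) on removal (adjusted p = 4.8e-17) and of 0.57 ± 0.032 on addition (adjusted p = 2.57e-17). Eef1b2 overlaps Ndufs1 on the opposite strand, and the strand used in counting is not stated. Eef1d had 7852, 7826, 8454 and 7631 depth-normalized reads in supplemented supernatant, against 5116, 4974, 5095 and 5195 in supernatant. Eef1d reads numbered 5066, 4833, 5070 and 5354 in methionine-free medium, against 8748, 8385, 8550 and 8777 in complete medium. The methionine-supplied libraries of Eef1d, the other catalytic subunit gene, were again above the rest, and those of supplemented supernatant overlapped those of complete medium. Eef1d had a log2 fold change of -0.76 ± 0.033 (SE) on removal (adjusted p = 1.09e-20) and of 0.64 ± 0.033 on addition (adjusted p = 1.99e-18). Eef1d overlaps Naprt on the same strand.

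Eef1e1 went the other way. Despite its symbol it encodes a scaffold protein of the multi-tRNA synthetase complex and not an elongation GTPase. Eef1e1 had 2048, 1953, 2162 and 2061 depth-normalized reads in supplemented supernatant, against 2824, 2691, 2815 and 2729 in supernatant. Eef1e1 reads numbered 2623, 2528, 2476 and 2686 in methionine-free medium, against 1036, 1057, 1020 and 1049 in complete medium. Every library of supernatant and methionine-free medium was above every methionine-supplied library, and the supplemented-supernatant libraries lay between supernatant and complete medium. Eef1e1 had a log2 fold change of 1.31 ± 0.038 (SE) on removal (adjusted p = 1.24e-25) and of -0.43 ± 0.038 on addition (adjusted p = 2.69e-12). The tissue-restricted paralog Eef1a2 was listed at 0 FPKM in every library of the FPKM table. FPKM divides fragments by transcript length and sequencing depth, so genes can be compared with each other on it. On this scale Eef1a1 averaged 9874 ± 628 FPKM in supplemented supernatant, 4242 ± 353 in supernatant, 3774 ± 217 in methionine-free medium and 8745 ± 393 in complete medium (SD, n = 4 each). Eef1e1 averaged 58.4 ± 15.7 FPKM in supplemented supernatant, 79.9 ± 27.4 in supernatant, 76.7 ± 22.5 in methionine-free medium and 29.9 ± 7.38 in complete medium (SD, n = 4 each), the lowest mean of the 6 elongation genes in each medium.

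**Figure D2:**
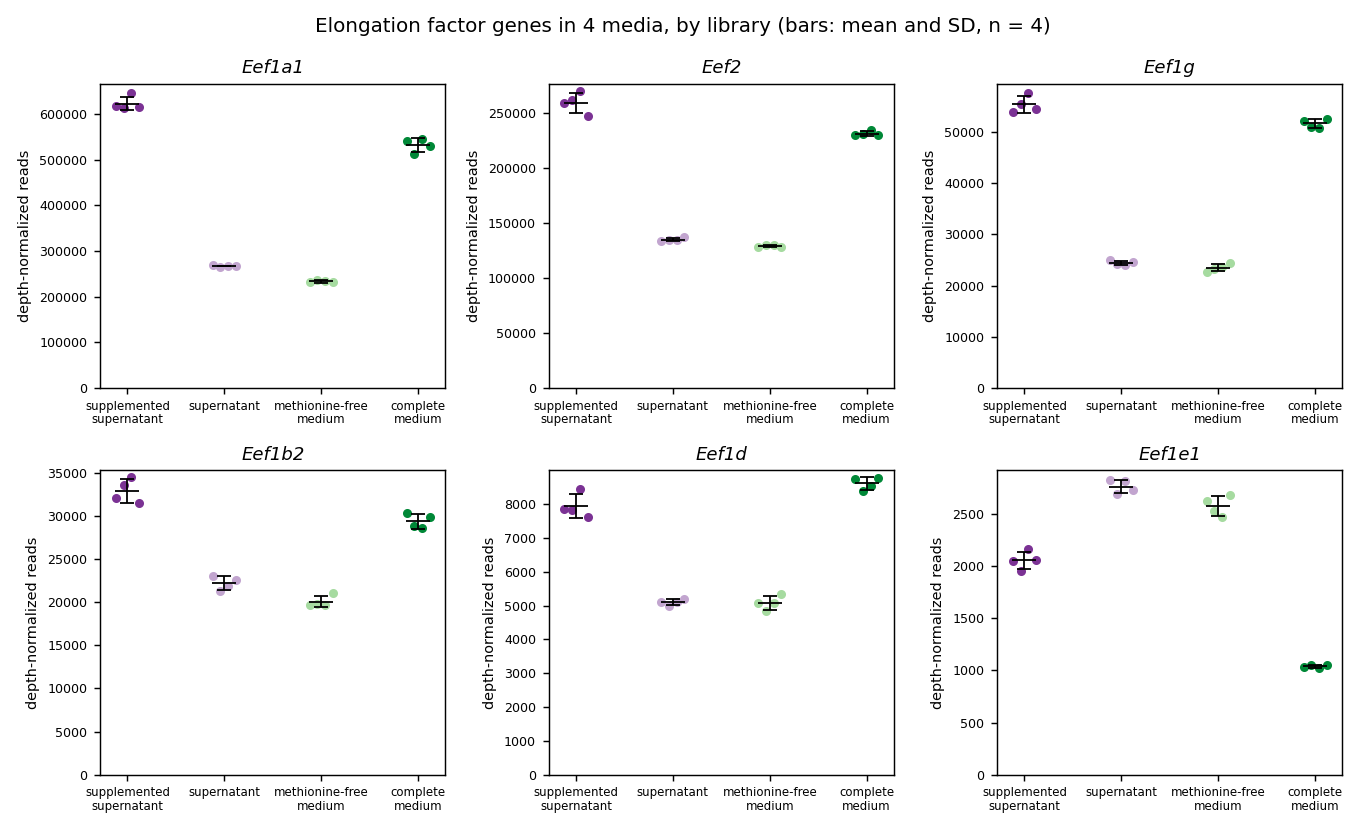
Depth-normalized reads of the 6 elongation factor genes, 1 panel per gene, with 4 libraries per medium as points and the mean with SD as bars. The 4 supplemented-supernatant libraries of Eef1a1 sit between 613636 and 645800 reads and the 4 methionine-free libraries between 231155 and 236509, whereas Eef1e1 is lowest in complete medium.

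The share of reads from elongation genes differed more between media than the share from eIF2, eIF3 and eIF4. The 6 elongation genes took 2.70% ± 0.0558 of reads in supplemented supernatant, 1.38% ± 0.00933 in supernatant, 1.26% ± 0.00956 in methionine-free medium and 2.33% ± 0.037 in complete medium (SD, n = 4 each). The genes of eIF2, eIF3 and eIF4 summed to 1.27% ± 0.0227, 1.03% ± 0.00637, 1.01% ± 0.0107 and 1.07% ± 0.011 of reads in supplemented supernatant, supernatant, methionine-free medium and complete medium. The ratio of these sums was 2.15, 2.16, 2.16 and 2.07 in supplemented supernatant, against 1.33, 1.33, 1.34 and 1.35 in supernatant. It was 1.26, 1.25, 1.24 and 1.22 in methionine-free medium, against 2.18, 2.15, 2.25 and 2.15 in complete medium. The ratios of the methionine-supplied media were above all others, and those of supplemented supernatant and complete medium overlapped. Most elongation reads are from Eef1a1 and Eef2, and both sums are reads not corrected for transcript length. The initiation sum joins classes that differ in direction. In methionine-free against complete medium, eIF4 took 0.551% against 0.523% of reads, eIF3 0.363% against 0.432% and eIF2 0.0985% against 0.11%. In supplemented supernatant against supernatant, the shares were 0.608% and 0.562% for eIF4, 0.529% and 0.368% for eIF3, and 0.13% and 0.0995% for eIF2. All 54 members together took 4.32 to 4.47% of reads in supplemented supernatant, 2.85 to 2.88% in supernatant, 2.70 to 2.74% in methionine-free medium and 3.69 to 3.77% in complete medium.

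**Figure D3:**
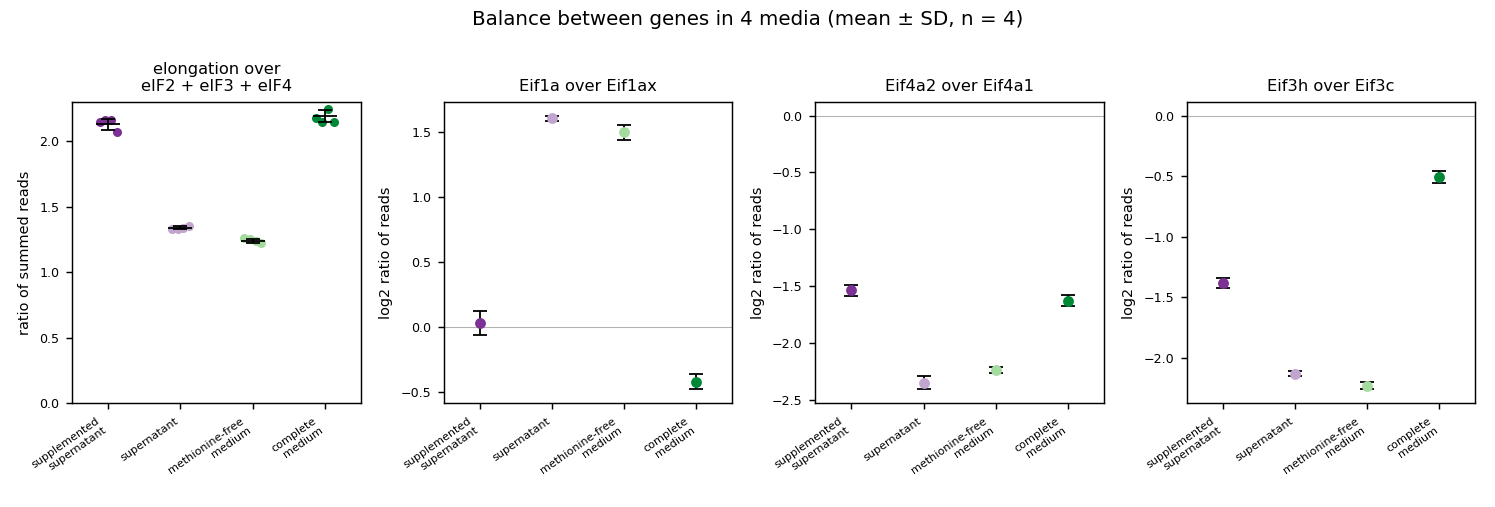
Left panel, the ratio of summed reads of the 6 elongation genes to those of eIF2, eIF3 and eIF4, by library; other panels, log2 ratios of reads between 2 related genes (mean ± SD, n = 4). The elongation ratio averages 2.13 in supplemented supernatant, 1.34 in supernatant, 1.24 in methionine-free medium and 2.19 in complete medium, and the Eif1a to Eif1ax log2 ratio averages 1.61 in supernatant and 1.5 in methionine-free medium.

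The 3 subunits of eIF2 did not move together. Eif2s3x, which encodes the gamma subunit that binds GTP and the initiator tRNA, fell on removal and rose on addition. Eif2s3x had 20334, 20514, 20791 and 21307 depth-normalized reads in supplemented supernatant, against 10612, 10009, 10504 and 10425 in supernatant. Eif2s3x reads numbered 9604, 9855, 9691 and 9860 in methionine-free medium, against 20848, 19884, 20211 and 21483 in complete medium. The methionine-supplied libraries were above all others. Eif2s3x had a log2 fold change of -1.08 ± 0.028 (SE) on removal (adjusted p = 1.04e-26) and of 1.0 ± 0.028 on addition (adjusted p = 1.59e-25). Its Y-linked copy Eif2s3y was listed at or near 0 FPKM in all libraries. Eif2s1, which encodes the alpha subunit that the stress kinases phosphorylate, went the other way. Eif2s1 had 8109, 7839, 8478 and 8564 depth-normalized reads in supplemented supernatant, against 9570, 9218, 9288 and 9109 in supernatant. Eif2s1 reads numbered 9010, 9511, 9473 and 9703 in methionine-free medium, against 7057, 6734, 6758 and 7283 in complete medium. All methionine-supplied libraries were below all others. Eif2s1 had a log2 fold change of 0.44 ± 0.032 (SE) on removal (adjusted p = 2.76e-14) and of -0.17 ± 0.032 on addition (adjusted p = 1.14e-05). Eif2s2, the beta subunit gene, passed the test on addition and not on removal. Eif2s2 had 17395, 17219, 19036 and 18623 depth-normalized reads in supplemented supernatant, against 13800, 12729, 13284 and 13348 in supernatant. Eif2s2 reads numbered 12434, 13558, 13262 and 13415 in methionine-free medium, against 13101, 12645, 12538 and 13563 in complete medium. Supplemented supernatant stood above the other 3 media, which overlapped each other. Eif2s2 had a log2 fold change of 0.02 ± 0.034 (SE) on removal (adjusted p = 0.543, which did not pass) and of 0.44 ± 0.034 on addition (adjusted p = 1.35e-13). With total-read scaling the Eif2s2 removal change passed at 0.18. The change of Eif2s2 with methionine differed between supernatant and fresh medium, with an interaction of 0.46 (adjusted p = 1.13e-09).

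In eIF2B, the exchange factor of eIF2, 2 of 5 subunit genes rose, 2 fell and 1 did not pass the test on methionine removal. Of all tested genes, 43.3% rose and 42.3% fell. For genes given by their means, ± is the SD over 4 libraries and the value in parentheses is the log2 fold change. Eif2b1 averaged 2086 ± 108 reads in supplemented supernatant against 2875 ± 27.4 in supernatant (-0.46), and 3046 ± 74.6 in methionine-free medium against 1910 ± 45.2 in complete medium (0.67). This alpha subunit gene had the highest removal change of the complex. Eif2b3 averaged 1274 ± 53.0 reads in supplemented supernatant against 813 ± 41.3 in supernatant (0.65), and 708 ± 11.9 in methionine-free medium against 830 ± 18.7 in complete medium (-0.23). The gamma subunit gene Eif2b3 had the highest addition change of the complex. Eif2b4 averaged 1591 ± 20.7 reads in supplemented supernatant against 1749 ± 110 in supernatant (-0.13), and 1705 ± 66.6 in methionine-free medium against 1514 ± 44.0 in complete medium (0.17). Eif2b5 averaged 4312 ± 144 reads in supplemented supernatant against 3933 ± 154 in supernatant (0.13), and 3733 ± 175 in methionine-free medium against 4006 ± 90.3 in complete medium (-0.10). The changes of these delta and epsilon subunit genes, of which Eif2b5 encodes the catalytic one, were small. Eif2b2 averaged 2210 ± 94.1 reads in supplemented supernatant against 2284 ± 88.8 in supernatant (-0.05, which did not pass), and 2361 ± 26.7 in methionine-free medium against 2376 ± 73.6 in complete medium (-0.01, which did not pass). Under total-read scaling the removal change was 0.06 for Eif2b5 and 0.15 for Eif2b2, so the direction of both depends on scaling.

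Eif2a and Eif2d encode proteins that can bring tRNA to the ribosome without eIF2. Both fell on removal and rose on addition. Eif2a had 4202, 4360, 4669 and 4454 depth-normalized reads in supplemented supernatant, against 2706, 2708, 2735 and 2720 in supernatant. Eif2a reads numbered 2676, 2849, 2862 and 2867 in methionine-free medium, against 5809, 5578, 5771 and 6206 in complete medium. Eif2a had a log2 fold change of -1.05 ± 0.035 (SE) on removal (adjusted p = 1.03e-23) and of 0.70 ± 0.035 on addition (adjusted p = 1.26e-18). The methionine-supplied libraries of Eif2a were above the others, and supplemented supernatant was below complete medium, with a log2 fold change of -0.40 between them. Eif2d averaged 3258 ± 135 reads in supplemented supernatant against 1935 ± 58.9 in supernatant (0.75), and 2087 ± 15.3 in methionine-free medium against 3839 ± 104 in complete medium (-0.88). Eif2a overlaps Serp1 and Eif2d overlaps Rassf5, each on the opposite strand.

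The scaffold complex eIF3 holds the small subunit, the other factors and the mRNA together, and its subunits differed widely in their change. On removal, 9 of its 12 genes fell and 3 rose, against 42.3% and 43.3% of all tested genes. Their median log2 fold change was -0.64. On addition all 12 rose, against 41.8% of all tested genes, with a median of 0.65. The rise of Eif3a turned to -0.14 under quantile normalization. Eif3h, which encodes an MPN-domain subunit, had the lowest removal change of all 54 members. Eif3h had 17807, 17542, 18695 and 17080 depth-normalized reads in supplemented supernatant, against 6426, 6569, 6342 and 6316 in supernatant. Eif3h reads numbered 5863, 5988, 6072 and 6149 in methionine-free medium, against 18003, 16984, 16815 and 17327 in complete medium. The methionine-supplied libraries were all above the others, and the 2 methionine-supplied media overlapped. Eif3h had a log2 fold change of -1.52 ± 0.030 (SE) on removal (adjusted p = 3.15e-30) and of 1.47 ± 0.030 on addition (adjusted p = 1.73e-29). Eif3f encodes the other MPN-domain subunit. Eif3f had 11020, 11222, 10844 and 10226 depth-normalized reads in supplemented supernatant, against 4739, 5039, 4821 and 4801 in supernatant. Eif3f reads numbered 4488, 4271, 4385 and 4726 in methionine-free medium, against 10079, 10052, 10224 and 9707 in complete medium. Eif3f had a log2 fold change of -1.17 ± 0.033 (SE) on removal (adjusted p = 8.14e-26) and of 1.16 ± 0.033 on addition (adjusted p = 1.73e-25). Its methionine-supplied libraries were also all above the others, with supplemented supernatant just above complete medium.

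Of the genes of PCI-domain subunits of eIF3, 4 fell on removal and rose on addition, and Eif3a and Eif3c, given below, rose in both. Eif3e averaged 16049 ± 469 reads in supplemented supernatant against 7526 ± 238 in supernatant (1.09), and 6935 ± 312 in methionine-free medium against 14454 ± 785 in complete medium (-1.06). Eif3k averaged 8358 ± 422 reads in supplemented supernatant against 3909 ± 35.4 in supernatant (1.09), and 3629 ± 24.8 in methionine-free medium against 7707 ± 298 in complete medium (-1.09). In each of these the removal change was close in size to that of Eif3f. Eif3l averaged 11392 ± 368 reads in supplemented supernatant against 6391 ± 229 in supernatant (0.83), and 6427 ± 102 in methionine-free medium against 11533 ± 395 in complete medium (-0.84). Eif3m averaged 8540 ± 376 reads in supplemented supernatant against 5909 ± 158 in supernatant (0.53), and 5955 ± 166 in methionine-free medium against 8886 ± 401 in complete medium (-0.58). Eif3m overlaps Ccdc73 on the opposite strand. The genes of the core subunits eIF3b and eIF3i and of eIF3d, which can itself bind the cap of some mRNAs, also fell. Eif3i averaged 10225 ± 433 reads in supplemented supernatant against 6909 ± 153 in supernatant (0.56), and 6393 ± 220 in methionine-free medium against 10344 ± 288 in complete medium (-0.69). Eif3b averaged 15000 ± 779 reads in supplemented supernatant against 10234 ± 167 in supernatant (0.55), and 9644 ± 241 in methionine-free medium against 12789 ± 180 in complete medium (-0.41). Eif3d averaged 11549 ± 338 reads in supplemented supernatant against 9443 ± 321 in supernatant (0.29), and 9100 ± 183 in methionine-free medium against 11261 ± 288 in complete medium (-0.31). Their removal changes were smaller than that of Eif3l.

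The remaining 3, the scaffold genes Eif3a and Eif3c and the gene of the RNA-binding subunit, Eif3g, rose on removal. Eif3a averaged 29113 ± 1292 reads in supplemented supernatant against 26466 ± 542 in supernatant (0.14), and 26810 ± 771 in methionine-free medium against 25241 ± 1300 in complete medium (0.09). Eif3g averaged 6890 ± 388 reads in supplemented supernatant against 5953 ± 134 in supernatant (0.21), and 5595 ± 126 in methionine-free medium against 4224 ± 220 in complete medium (0.41). The removal rise of Eif3a did not pass in limma without the trend (adjusted p = 0.0512), and its libraries overlapped between the fresh media. Eif3c had 45342, 45138, 48479 and 46270 depth-normalized reads in supplemented supernatant, against 28318, 28251, 28048 and 27312 in supernatant. Eif3c reads numbered 28185, 27984, 28684 and 28335 in methionine-free medium, against 24771, 23796, 24664 and 25302 in complete medium. The supplemented-supernatant libraries of Eif3c were above all 12 others, and complete medium was below all others. Eif3c had a log2 fold change of 0.20 ± 0.028 (SE) on removal (adjusted p = 6.01e-08) and of 0.73 ± 0.028 on addition (adjusted p = 5.51e-22). Eif3c and Eif3g rose both on removal in fresh medium and on addition to supernatant, and their interactions were 0.93 (adjusted p = 2.88e-19) and 0.62 (adjusted p = 7.3e-12). Eif3j, the gene of a loosely bound subunit, was read from the FPKM table, where it averaged 68.5 ± 21.1 FPKM in supplemented supernatant, 103 ± 39.6 in supernatant, 105 ± 29.4 in methionine-free medium and 54.8 ± 15.1 in complete medium (SD, n = 4 each).

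The order of the eIF3 subunits per transcript length was not the same in all media. In supplemented supernatant Eif3c and Eif3h had the highest means of the 12, at 520 ± 71.9 and 518 ± 29.8 FPKM, and overlapped between libraries. In supernatant Eif3c had the highest mean at 291 ± 12.6 FPKM, and Eif3h had 177 ± 13.4. In methionine-free medium Eif3c again had the highest at 303 ± 27.2 FPKM, and Eif3h had 168 ± 8.04. In complete medium Eif3h had the highest at 505 ± 27.8 FPKM, and Eif3c had 274 ± 31.5 (SD, n = 4 in each medium). The libraries of these 2 genes did not overlap in the other 3 media, with Eif3h above Eif3c in complete medium and below it in supernatant and methionine-free medium. The lowest means were close to each other and overlapped, at 162 FPKM for Eif3a and 166 for Eif3b in supplemented supernatant, and 140 for Eif3g and 142 for Eif3a in complete medium. The log2 ratio of Eif3h to Eif3c reads was -1.38 ± 0.04 in supplemented supernatant, -2.13 ± 0.02 in supernatant, -2.23 ± 0.03 in methionine-free medium and -0.51 ± 0.05 in complete medium (SD, n = 4 each).

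**Figure D4:**
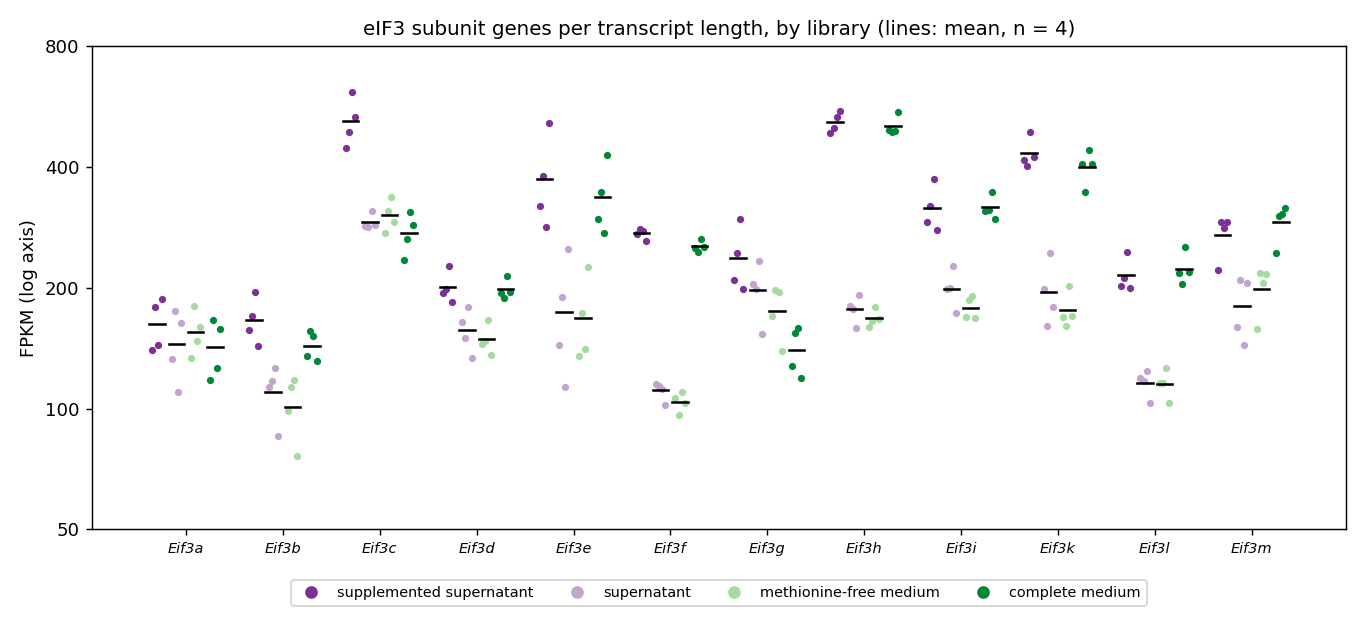
FPKM on a log axis of the 12 eIF3 subunit genes, with 4 libraries per medium as points and means as lines. Eif3e, Eif3f, Eif3h, Eif3k and Eif3l are high in supplemented supernatant and complete medium and low in supernatant and methionine-free medium, and Eif3c and Eif3h stand side by side in supplemented supernatant at 520 and 518 FPKM.

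In eIF4, the cap-binding and helicase group, 8 of 12 genes fell and 3 rose on removal, and 9 rose and 3 fell on addition. The all-gene shares were 42.3% and 43.3% on removal and 41.8% each way on addition. The helicase gene Eif4a2 changed more than its paralog Eif4a1. Eif4a2 had 16405, 16524, 16621 and 17656 depth-normalized reads in supplemented supernatant, against 7735, 7523, 7901 and 7916 in supernatant. Eif4a2 reads numbered 7777, 7781, 7612 and 7944 in methionine-free medium, against 14912, 14560, 14099 and 15521 in complete medium. Eif4a2 had a log2 fold change of -0.92 ± 0.031 (SE) on removal (adjusted p = 6.53e-24) and of 1.11 ± 0.031 on addition (adjusted p = 6.91e-26). Methionine-supplied libraries were above all others for both paralogs. Eif4a1 had 47611, 48117, 49903 and 49095 depth-normalized reads in supplemented supernatant, against 40179, 40511, 39628 and 38560 in supernatant. Eif4a1 reads numbered 35951, 36456, 36648 and 38092 in methionine-free medium, against 46649, 45237, 45309 and 45620 in complete medium. Eif4a1 had a log2 fold change of -0.31 ± 0.027 (SE) on removal (adjusted p = 1.96e-12) and of 0.29 ± 0.027 on addition (adjusted p = 1.13e-11). How reads of near-identical paralogs were divided is not given in the sources used here. Under quantile normalization the Eif4a1 changes reversed, to 0.17 on removal and -0.22 on addition. The log2 ratio of Eif4a2 to Eif4a1 reads was -1.54 ± 0.05 in supplemented supernatant, -2.35 ± 0.06 in supernatant, -2.24 ± 0.03 in methionine-free medium and -1.63 ± 0.05 in complete medium (SD, n = 4 each). Eif4a3 averaged 5404 ± 163 reads in supplemented supernatant against 3893 ± 160 in supernatant (0.47), and 4090 ± 125 in methionine-free medium against 4965 ± 152 in complete medium (-0.28). Eif4a3 encodes a relative that works in the exon junction complex on spliced mRNA.

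Among the cap-binding genes, Eif4e had small changes and Eif4e3, a relative with an atypical cap pocket, had larger ones. Eif4e had 5680, 5750, 6034 and 6075 depth-normalized reads in supplemented supernatant, against 4609, 4584, 4622 and 4540 in supernatant. Eif4e reads numbered 4330, 4484, 4449 and 4549 in methionine-free medium, against 5255, 4940, 4815 and 5118 in complete medium. Eif4e had a log2 fold change of -0.18 ± 0.032 (SE) on removal (adjusted p = 5.8e-06) and of 0.36 ± 0.032 on addition (adjusted p = 2.82e-12). Eif4e was higher in every methionine-supplied library than in any other, and with total-read scaling its removal change was -0.02 and did not pass the test. Eif4e3 averaged 4892 ± 99.3 reads in supplemented supernatant against 2366 ± 22.2 in supernatant (1.05), and 2228 ± 75.2 in methionine-free medium against 4356 ± 134 in complete medium (-0.97). Eif4e2 averaged 3562 ± 123 reads in supplemented supernatant against 2971 ± 53.5 in supernatant (0.26), and 2968 ± 115 in methionine-free medium against 3667 ± 87.1 in complete medium (-0.31). Eif4e2 encodes a competing cap-binding protein that represses translation. The log2 ratio of Eif4e3 to Eif4e reads was -0.27 ± 0.07 in supplemented supernatant and -0.96 ± 0.02 in supernatant, and -1.0 ± 0.07 in methionine-free medium and -0.21 ± 0.07 in complete medium (SD, n = 4 each).

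The helicase cofactor gene Eif4b fell on removal, and its relative Eif4h fell less, a change that turned to 0.07 under quantile normalization. Eif4b averaged 34879 ± 697 reads in supplemented supernatant against 18353 ± 513 in supernatant (0.93), and 18667 ± 440 in methionine-free medium against 31630 ± 770 in complete medium (-0.76). Eif4h averaged 16500 ± 460 reads in supplemented supernatant against 13443 ± 267 in supernatant (0.30), and 14346 ± 383 in methionine-free medium against 16400 ± 501 in complete medium (-0.19). The 3 genes of the eIF4G scaffold group rose on removal and fell on addition. Eif4g1 had 21314, 21397, 21880 and 22012 depth-normalized reads in supplemented supernatant, against 24886, 25650, 24582 and 25139 in supernatant. Eif4g1 reads numbered 23424, 22766, 23787 and 23290 in methionine-free medium, against 21612, 21516, 20591 and 20987 in complete medium. Eif4g1 had a log2 fold change of 0.14 ± 0.026 (SE) on removal (adjusted p = 1.39e-05) and of -0.21 ± 0.026 on addition (adjusted p = 8.41e-09). Eif4g1 was lower in every methionine-supplied library than in any other. Eif4g2 averaged 49328 ± 1968 reads in supplemented supernatant against 54470 ± 475 in supernatant (-0.14), and 52831 ± 761 in methionine-free medium against 32124 ± 182 in complete medium (0.72). Eif4g3 averaged 6875 ± 125 reads in supplemented supernatant against 8061 ± 122 in supernatant (-0.23), and 7616 ± 117 in methionine-free medium against 6247 ± 267 in complete medium (0.29). Eif4g2 encodes a relative of eIF4G that lacks the eIF4E-binding region and serves cap-independent initiation. Eif4g2 was higher in supplemented supernatant than in complete medium, by a log2 fold change of 0.62, and its interaction was 0.57 (adjusted p = 5.05e-14). Eif4enif1 averaged 6266 ± 88.2 reads in supplemented supernatant against 5672 ± 117 in supernatant (0.14), and 5843 ± 129 in methionine-free medium against 5717 ± 197 in complete medium (0.03, which did not pass). Eif4enif1 encodes the eIF4E transport protein.

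In the eIF1 and eIF1A group, 4 of 5 genes rose and 1 fell on removal, against 43.3% and 42.3% of all tested genes. The median log2 fold change was 0.74 against 0.009 for all tested genes. Eif1a, whose product helps the small subunit scan for the start codon, had the highest change of all 54 members. Eif1a had 4343, 4616, 4609 and 4631 depth-normalized reads in supplemented supernatant, against 9861, 9185, 9524 and 9516 in supernatant. Eif1a reads numbered 8525, 8956, 8937 and 9329 in methionine-free medium, against 3504, 3021, 3137 and 3309 in complete medium. Eif1a had a log2 fold change of 1.46 ± 0.037 (SE) on removal (adjusted p = 3.78e-27) and of -1.07 ± 0.037 on addition (adjusted p = 4.19e-23). All methionine-supplied libraries were below all others. Its X-linked paralog Eif1ax, which encodes a nearly identical protein, fell. Eif1ax averaged 4457 ± 289 reads in supplemented supernatant against 3115 ± 135 in supernatant (0.52), and 3153 ± 124 in methionine-free medium against 4340 ± 120 in complete medium (-0.46). The log2 ratio of Eif1a to Eif1ax reads was 0.03 ± 0.09 in supplemented supernatant, 1.61 ± 0.02 in supernatant, 1.5 ± 0.06 in methionine-free medium and -0.42 ± 0.06 in complete medium (SD, n = 4 each).

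Eif1, whose product guards start-codon choice, rose on removal and fell on addition. Eif1 had 17182, 17384, 18353 and 17438 depth-normalized reads in supplemented supernatant, against 21558, 21135, 21341 and 21515 in supernatant. Eif1 reads numbered 19965, 19126, 20407 and 21767 in methionine-free medium, against 12386, 12220, 11857 and 12199 in complete medium. Eif1 had a log2 fold change of 0.74 ± 0.031 (SE) on removal (adjusted p = 5.91e-21) and of -0.28 ± 0.031 on addition (adjusted p = 5.57e-10). The methionine-supplied libraries were below all others, and complete medium was the lowest. Eif1ad, named for its eIF1A-like domain, passed on removal and not on addition. Eif1ad had 4871, 4701, 4989 and 4853 depth-normalized reads in supplemented supernatant, against 5256, 5024, 4998 and 4865 in supernatant. Eif1ad reads numbered 5032, 4942, 5334 and 5351 in methionine-free medium, against 3085, 3109, 3006 and 3061 in complete medium. Eif1ad had a log2 fold change of 0.75 ± 0.032 (SE) on removal (adjusted p = 1.2e-20) and of -0.05 ± 0.032 on addition (adjusted p = 0.129, which did not pass). Complete medium was below all other libraries for Eif1ad, and supplemented supernatant overlapped with supernatant. The interaction of Eif1ad was 0.70 (adjusted p = 1.94e-14), and with total-read scaling its addition change passed at -0.18. Eif1b averaged 1116 ± 44.9 reads in supplemented supernatant against 1451 ± 65.9 in supernatant (-0.38), and 1427 ± 79.7 in methionine-free medium against 1274 ± 49.6 in complete medium (0.16). Eif1b, a close copy of Eif1, overlapped between the 2 fresh media.

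In the eIF5 group, 3 of 4 genes rose and none fell on removal, and 2 fell and 1 rose on addition. The all-gene shares were 43.3% and 42.3% on removal and 41.8% each way on addition. Eif5 encodes the activator that makes eIF2 hydrolyse GTP at the start codon. Eif5 had 13291, 12865, 13644 and 14053 depth-normalized reads in supplemented supernatant, against 20488, 18920, 20019 and 19675 in supernatant. Eif5 reads numbered 18436, 18931, 19018 and 19205 in methionine-free medium, against 11163, 10972, 11017 and 12153 in complete medium. Eif5 had a log2 fold change of 0.74 ± 0.033 (SE) on removal (adjusted p = 2.27e-20) and of -0.55 ± 0.033 on addition (adjusted p = 8.26e-17). All methionine-supplied libraries were below all others. Eif5b averaged 6685 ± 334 reads in supplemented supernatant against 8032 ± 100 in supernatant (-0.27), and 7895 ± 192 in methionine-free medium against 6203 ± 238 in complete medium (0.35). Eif5b encodes the GTPase that joins the ribosomal subunits and overlaps Rev1 on the opposite strand. Eif5a encodes the hypusine-carrying factor that helps the ribosome at difficult peptide bonds. Eif5a had 54434, 54146, 55630 and 51937 depth-normalized reads in supplemented supernatant, against 49858, 52521, 49219 and 49088 in supernatant. Eif5a reads numbered 49401, 50381, 51648 and 51806 in methionine-free medium, against 48555, 46740, 45116 and 43095 in complete medium. Eif5a had a log2 fold change of 0.15 ± 0.033 (SE) on removal (adjusted p = 0.000109) and of 0.11 ± 0.033 on addition (adjusted p = 0.00339). Supplemented supernatant and supernatant overlapped for Eif5a, and its addition change reversed to -0.02 with total-read scaling and to -0.44 with quantile normalization. Eif5a2 averaged 969 ± 35.8 reads in supplemented supernatant against 1030 ± 56.9 in supernatant (-0.09, which did not pass), and 955 ± 37.8 in methionine-free medium against 922 ± 52.1 in complete medium (0.05, which did not pass). Eif5a2 is the less abundant paralog by reads. Eif6 averaged 5506 ± 260 reads in supplemented supernatant against 4939 ± 125 in supernatant (0.16), and 5406 ± 197 in methionine-free medium against 4183 ± 257 in complete medium (0.37). Eif6, whose product keeps the large ribosomal subunit free until it is mature, rose in both comparisons, and its interaction was 0.53 (adjusted p = 6.99e-10). As a share of reads, Eif6 overlapped between supplemented supernatant (0.0147 to 0.0161%) and supernatant (0.0145 to 0.0153%). The size of its addition rise therefore depends on scaling.

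Of the 4 Argonaute genes listed under Eif2c symbols, 2 fell on removal and 2 did not pass the test, and on addition 2 fell and 2 did not pass. The all-gene shares that fell were 42.3% on removal and 41.8% on addition. Eif2c1 averaged 2688 ± 112 reads in supplemented supernatant against 2928 ± 79.0 in supernatant (-0.12), and 2891 ± 45.9 in methionine-free medium against 3310 ± 98.6 in complete medium (-0.19). Eif2c2 averaged 7611 ± 374 reads in supplemented supernatant against 7989 ± 215 in supernatant (-0.07, which did not pass), and 8058 ± 544 in methionine-free medium against 9569 ± 399 in complete medium (-0.25). Eif2c2, now Ago2, encodes the Argonaute that can cut its target. Eif2c3 averaged 450 ± 41.6 reads in supplemented supernatant against 492 ± 43.6 in supernatant (-0.13, which did not pass), and 442 ± 37.2 in methionine-free medium against 459 ± 49.8 in complete medium (-0.05, which did not pass). Eif2c4, at a mean of 27.58 depth-normalized reads, was the lowest member of all. Eif2c4 had 10.6, 16.5, 15.7 and 15.6 depth-normalized reads in supplemented supernatant, against 36.8, 30.5, 41.4 and 38.7 in supernatant. Eif2c4 reads numbered 26.9, 36.6, 40 and 28.6 in methionine-free medium, against 25.7, 24.0, 24.3 and 29.6 in complete medium. Its supplemented-supernatant libraries were below all others. Eif2c4 had a log2 fold change of 0.32 ± 0.224 (SE) on removal (adjusted p = 0.176, which did not pass) and of -1.29 ± 0.224 on addition (adjusted p = 3.76e-06). The SE of Eif2c4 was the widest among the members.

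The supernatant comparison with complete medium shares the complete-medium libraries with the removal comparison, and the values of the members stand side by side. Eif3h had log2 fold changes of -1.43 in supernatant against complete medium and -1.52 on removal. In the same order Eef1a1 had -0.99 and -1.19, Eef1g -1.08 and -1.14, and Eif2a -1.10 and -1.05. Among those that rose, Eif1a had 1.56 and 1.46, Eef1e1 1.41 and 1.31, and Eif1 0.81 and 0.74. By class, the medians in supernatant against complete medium were -0.77 for the elongation factors, -0.58 for eIF3, -0.24 for eIF4, 0.04 for eIF2 and 0.72 for the eIF1 and eIF1A group.

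Supernatant and methionine-free medium differed less. Between them 15 members (27.8%) were higher in supernatant and 3 (5.56%) lower, against 14.0% and 12.9% of all tested genes. The count of higher members dropped to 9 without methionine-free replicate 0, where 11.9% of all tested genes were higher. No member was higher with the FPKM table, or 1 with it and a replicate block, against 0.192% and 5.54% of all genes tested there. The changes were small: Eef1a1 had a log2 fold change of 0.19, Eif2b3 0.20, Eef1b2 0.15, Eif3e 0.12 and Eif6 -0.13.

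Supplemented supernatant exceeded complete medium for many members. Of the 54, 33 (61.1%) were higher and 8 (14.8%) lower, against 32.5% and 32.5% of all tested genes. The highest were Eef1e1 at 0.98, Eif3c at 0.91, Eif3g at 0.71, Eif1ad at 0.66 and Eif2b3 at 0.62 on the log2 scale. Eef1a1 was higher by 0.23 and Eef2 by 0.17, and Eif2a and Eif2d had log2 fold changes of -0.40 and -0.24. From FPKM values 6 members were higher, or 17 with a replicate block, against 8.07% and 23.4% of all genes tested in that table.

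The interaction asks whether methionine changed a gene differently in supernatant and in fresh medium. It is the log2 change on addition to supernatant minus the log2 change of complete over methionine-free medium. It was positive for 22 members (40.7%) and negative for 8 (14.8%), against 27.6% and 25.0% of all tested genes. The 3 largest in size were those of Eif2c4 at -0.97 (adjusted p = 0.0108), Eif3c at 0.93 (adjusted p = 2.88e-19) and Eef1e1 at 0.88 (adjusted p = 2.25e-15). For the elongation GTPases and Eif3h it did not pass the test, at 0.03 (adjusted p = 0.562) for Eef1a1, 0.10 (adjusted p = 0.0506) for Eef2 and -0.05 (adjusted p = 0.32) for Eif3h.

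The removal and addition comparisons share no library. Of the 30 members that fell on removal, 28 rose on addition, which is 93.3% of the first list and 80% of the 35 that rose on addition. Of the 18 that rose on removal, 12 fell on addition, 66.7% of the first list and 85.7% of the 14 that fell. Among all tested genes, 83.1% of those that fell on removal rose on addition and 82.7% of those that rose on removal fell on addition, so opposite changes were common to most genes. Another 5 members rose in both, and 1 fell in both. Across the 54 members, which are genes and not replicates, Pearson's r between the log2 fold changes was -0.88 and Spearman's rho -0.89, given as a description. Over all 12469 tested genes the same measures were -0.89 and -0.88.

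**Figure D5:**
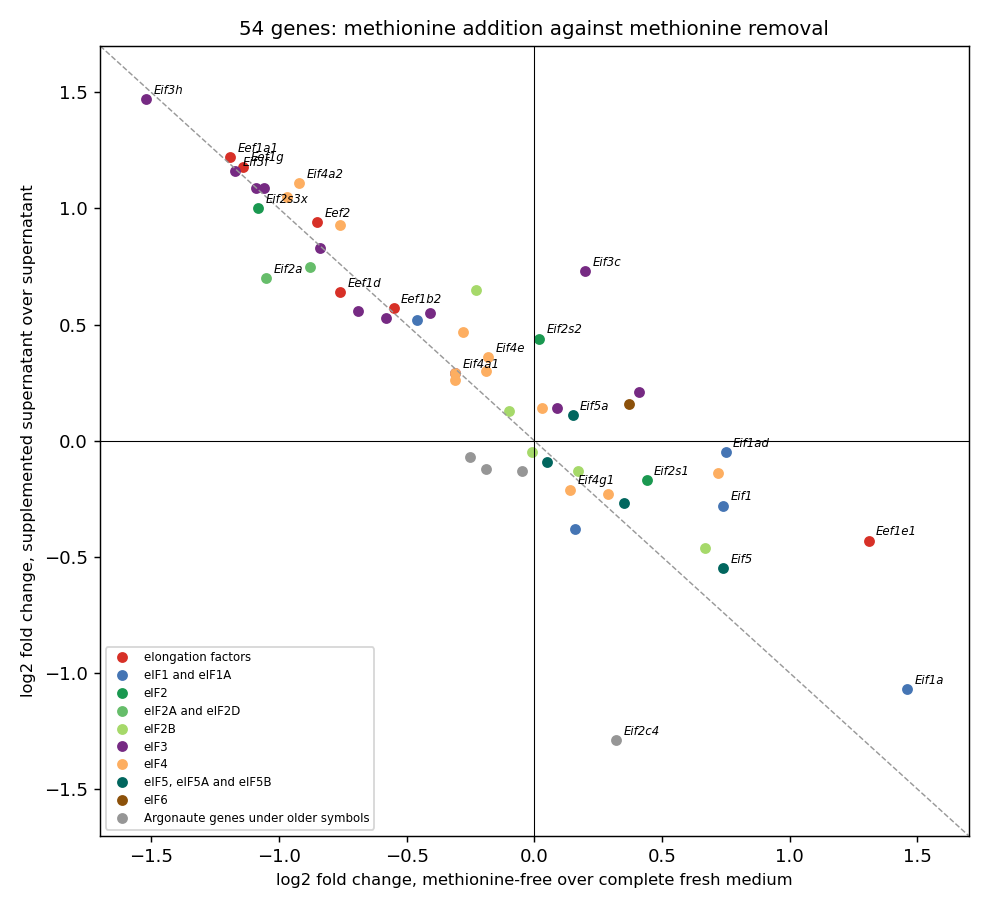
Log2 fold change on methionine addition to supernatant (vertical axis) against that on methionine removal in fresh medium (horizontal axis) for the 54 genes, colored by class, with the dashed line where the 2 changes are equal and opposite. Eif3h at -1.52 and 1.47 and Eef1a1 at -1.19 and 1.22 lie close to the line, and Eif3c at 0.20 and 0.73, Eef1e1 at 1.31 and -0.43 and Eif2c4 at 0.32 and -1.29 lie off it.

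Genes that act on these factors were counted as lists beside the members. Among all tested genes, 43.3% rose and 42.3% fell on removal, and 41.8% moved each way on addition. Of 14 control kinases and binding proteins, 9 rose, 3 fell and 2 did not pass on removal, and 4 rose and 9 fell on addition. The eIF2 kinases split: Eif2ak3, the kinase of the endoplasmic reticulum stress response, had log2 fold changes of 0.67 on removal and -1.21 on addition, and Eif2ak4, the GCN2 sensor of uncharged tRNA, -0.63 and 0.35. The other kinase genes were higher without methionine in fresh medium. Eif2ak1 averaged 3087 reads in methionine-free against 2787 in complete medium, and Eif2ak2 2611 against 2208. Larp1, which encodes the binding protein of the pyrimidine element, had 1.04 and -0.35, and Ppp1r15a, a phosphatase subunit for eIF2 alpha, 0.84 and -0.29. Eif4ebp1, the gene of an inhibitor of eIF4E, rose in both, at 0.48 and 0.17. Its paralogs differed in methionine-free against complete medium: Eif4ebp3 averaged 329 against 516 reads and Eif4ebp2 4910 against 4808. Eef2k, the kinase that inhibits eEF2, had -0.26 and 0.56.

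In termination and recycling, 7 of 9 genes rose and 1 fell on removal, and 6 fell and 2 rose on addition. The all-gene shares for this list and the next were again 43.3% and 42.3% on removal and 41.8% each way on addition. Gspt2, a release factor GTPase, had log2 fold changes of 2.5 and -2.73, and the ribosome rescue factor gene Pelo 1.59 and -1.20. The cytosolic release factor partner Gspt1 had 0.00 on removal, which did not pass. Of the 7 tested genes of 9 listed for hypusine and diphthamide synthesis, the modifications of eIF5A and eEF2, 6 rose and none fell on removal, and 6 fell and 1 rose on addition. Dph2 had 1.71 and -1.19, Dph3 1.24 and -1.13 and Dohh 0.80 and -0.87.

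Of 5 genes of poly(A)-binding proteins and their interacting proteins, 2 (Paip1 and Paip2b) rose and 3 (Pabpc1, Pabpc4 and Paip2) fell on removal. The Paip genes encode interacting proteins, not poly(A)-binding proteins. Pabpc1, the main cytosolic poly(A)-binding protein gene, whose product is a partner of eIF4G, had log2 fold changes of -0.95 on removal and 0.93 on addition. Of 9 mitochondrial translation factor genes, 4 rose, 2 fell and 3 did not pass on removal, and 2 rose and 5 fell on addition. For both short lists the share that rose on removal was near the 43.3% of all tested genes, of which 42.3% fell. On addition 41.8% of all tested genes moved each way. Among the mitochondrial genes, the initiation factor gene Mtif3 had log2 fold changes of 0.85 and -0.94, and Tufm, the mitochondrial counterpart of eEF1A, -0.03, which did not pass, and -0.23.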

How the data were processed

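Total RNA of 16 libraries in 4 media (4 each) was sequenced by the authors. Per the submitters' processing notes, Bowtie2 2.2.1 and TopHat2 2.0.13, FastQC 0.11.3, Cuffdiff 2.2.1 and Cufflinks were used with mm10 and GRCm38, in roles that the notes do not give. The counting tool and strand are not given in the sources used here. One table deposited by the authors holds a signal per gene and library, a depth-normalized count. Of the values of all 16 libraries, 100.0% came out as whole reads divided by 1 factor per library. The tolerance was 0.001 of a read for low values and widened with the value, so the check says little for the highest genes. The other table deposited by the authors holds FPKM per gene and library. In 1 methionine-free library the factor was too close to 1 to be checked, so count tests used 15 libraries. On removal, edgeR called 5401 genes higher and 5169 lower, against 5397 and 5275 by limma.

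The deposited signal was taken to log2 after adding 1, so folds of low genes are understated. Using limma 3.58.1 under R 4.3.3, 4 group means and a mean-variance trend were fitted over 12469 genes whose mean reached 10. A gene was called where its two-sided p, adjusted by Benjamini-Hochberg, was under 0.05. The script was tested on simulated data. Depth was 25.8 to 42.3 M recovered reads per library. No value of another sample's column was used.

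Alternatives were pseudocounts of 0.5 and 5, no filter or a mean of at least 50, total-read scaling, quantile normalization, edgeR 4.0.16 and DESeq2 1.42.0 on recovered reads, limma without the trend, the FPKM table, a replicate block, and each library left out. Members, gene lists and tests were chosen with earlier results of these data known. Values of all 16 libraries are given for the elongation genes, eIF2, Eif4e, Eif4a1, Eif4a2, Eif4g1, Eif5a, the 3 highest and 3 lowest members of the first 3 comparisons and the 3 largest interactions, and means for other called members. Promoter windows came from RefSeq (GRCm38.p6).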

Additional observations from a re-analysis of the deposited data

Results flagged for a closer look

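In 92 groups of 4 libraries (23 genes in 4 media), 6 held a library far from the other 3 by Dixon's test, and chance gives about 1 in 20. Eef1a1 had 645800 depth-normalized reads in 1 supplemented-supernatant library, above the other 3. Eef1b2 had 21040 reads in 1 methionine-free library, above the other 3. Eif1a had 4343 reads in 1 supplemented-supernatant library, below the rest of its group, and Eif2a had 2676 in 1 methionine-free library, also below. Eif2c4 had 10.6 reads in 1 supplemented-supernatant library, the lowest of that medium. Eif5 had 12153 reads in 1 complete-medium library, the highest of that medium.

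The change with methionine differed between supernatant and fresh medium, by limma's interaction term, for 22 members in the positive and 8 in the negative direction. Of all tested genes, 27.6% and 25.0% had positive and negative interactions. The largest in size were Eif2c4 at -0.97 (adjusted p = 0.0108), Eif3c at 0.93 (adjusted p = 2.88e-19) and Eef1e1 at 0.88 (adjusted p = 2.25e-15) on the log2 scale.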

How the results depend on the processing

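Fewer members were called with the FPKM table in every comparison, as were fewer of all genes. With it, 7 members rose on removal, 9 were higher in supernatant against complete medium and 3 fell on addition. The matching shares of all genes tested there were 26.1%, 25.1% and 22.1%. In supplemented supernatant against complete medium 6 were then higher and 2 lower, in supernatant against methionine-free medium 0 and 0, and 3 interactions were positive and 0 negative. The all-gene shares in these 3 were 8.07% and 9.05%, 0.192% and 0.146%, and 3.10% and 3.65%. With the FPKM table and a replicate block, supernatant against complete medium had 12 higher, addition 9 lower, supplemented supernatant against complete medium 17 higher, supernatant against methionine-free medium 1 higher and 0 lower, and the interaction 3 negative. In that order, the shares of all genes were 35.7%, 34.5%, 23.4%, 5.54%, 7.55% and 17.2%. Residuals of libraries with the same number correlated at 0.13 to 0.63 in the FPKM table and -0.07 to 0.07 in the depth-normalized table. With a replicate block on depth-normalized values, removal had 18 higher and 30 lower members. Of 262 gene results over all comparisons, 1 then passed the test that had not before, 2 no longer passed and 0 reversed. Leaving out 1 library at a time gave 9 to 16 higher members in supernatant against methionine-free medium. The 9 came without methionine-free replicate 0, where 11.9% of all tested genes were higher.

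Total-read scaling reversed Eif2b2 (0.15 on removal, 0.09 in supernatant against complete medium), Eif2b5 (0.06 and 0.12), and, in supernatant against complete medium, Eif2b3 (0.12), Eif4e (0.01) and Eif4enif1 (0.14). It also reversed Eif5a on addition (-0.02). It gave 25 members (46.3%) that fell on removal, against 35.1% of all tested genes. In supernatant against complete medium it gave 26 lower and 26 higher members (48.1% each), against 35.8% and 49.8%. Lower members in the same comparisons numbered 27 and 25 with quantile normalization, against 42.5% of all genes in each. With FPKM they numbered 27 and 27, against 32.1% and 32.3%. In supernatant against methionine-free medium, total-read scaling gave 11 higher and 4 lower members, against 12.2% and 14.9%. Quantile normalization reversed Eif4a1 (0.17 on removal, 0.30 in supernatant against complete medium, -0.22 on addition), Eif4h on removal (0.07), Eif4enif1 in supernatant against complete medium (0.08), and Eif3a (-0.14) and Eif5a (-0.44) on addition. It gives the top-ranked gene, Eef1a1, 1 value in all libraries by construction; the cause of the other changes was not tested.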
